A study of Mus musculus with 11 samples.

Results

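The Hox genes encode homeodomain transcription factors and lie in 4 clusters, HoxA on mouse chromosome 6, HoxB on 11, HoxC on 15 and HoxD on 2. Members were the rows of the count table whose symbol is Hox, a cluster letter and a paralogue number, with antisense transcripts left out: 39 of 24421 rows, 11 in HoxA, 10 in HoxB, 9 in HoxC and 9 in HoxD. The table came from bulk poly(A) RNA sequencing of cells held by EpCAM microbeads from fetal mouse lungs at E17.5, late in gestation. There were 5 PRDM3/16KO libraries, which carried floxed alleles of Prdm16 and of Prdm3 (Mecom in the count table) and the ShhCre driver, and 6 Control libraries. The breeding males were floxed on both Prdm3 alleles and on 1 Prdm16 allele with the Cre, and the females were floxed on both alleles of both genes. The labels give no alleles or Cre status for the Control embryos and do not say whether a library is 1 animal, so the spread behind each p-value may be partly technical. Shh is active throughout the lung epithelium, and Cre acts only in cells that have expressed it.

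Along a Hox cluster all genes are transcribed in the same direction. Genes with low paralogue numbers stand at the 3' end and are expressed early and towards the head, and genes with high numbers stand at the 5' end and are expressed late and towards the tail. Genes with the same number in different clusters are paralogues with closely related homeodomains. HOX proteins bind DNA together with TALE homeodomain cofactors of the PBX, MEIS and PKNOX families, retinoic acid induces the 3' genes, and Polycomb complexes keep silent clusters closed. In the developing lung, Hoxa5 is known in the mouse for its expression in mesenchyme and for the airway and lung defects of mutants.

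The homeobox, which encodes the DNA-binding domain, is shown for Hoxb2, the member with the smallest adjusted p, above its HoxA paralogue, since the results turn on telling paralogues apart. The sequences are from GENCODE release M21 transcripts (mm10). Capitals mark the bases that differ between them.
Hoxb2: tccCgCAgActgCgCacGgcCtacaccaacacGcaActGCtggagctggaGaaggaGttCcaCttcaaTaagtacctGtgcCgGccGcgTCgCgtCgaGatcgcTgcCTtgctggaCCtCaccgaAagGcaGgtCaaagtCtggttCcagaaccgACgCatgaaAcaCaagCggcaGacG
Hoxa2: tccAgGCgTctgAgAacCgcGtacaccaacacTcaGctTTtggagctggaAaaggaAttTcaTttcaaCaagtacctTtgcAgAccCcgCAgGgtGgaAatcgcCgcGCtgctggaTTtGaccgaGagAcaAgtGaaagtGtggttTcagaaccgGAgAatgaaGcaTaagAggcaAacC
These lie at chr11:96352985-96353164 (plus strand) for Hoxb2 and chr6:52163411-52163590 (minus strand) for Hoxa2, both in coding exons. The Hoxb2 and Hoxa2 homeoboxes differed at 46 of 180 bases and encode the same 60 residues, and their longest identical stretch was 11 bases. Those of Hoxb3 and Hoxa3, not shown, were closer. They differed at 11 of 180 bases and 1 of 60 residues, with a longest identical stretch of 33 bases.

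Library totals ran from 7286156 to 7652477 counts in the knockout and from 6065906 to 7869787 in Control. Prdm16 was counted at 165 ± 12.2 CPM in the knockout (SD, n = 5) and 201 ± 21.8 CPM in Control (SD, n = 6), and Mecom at 340 ± 16.0 CPM in the knockout and 218 ± 9.97 CPM in Control. CPM here is the count scaled to the TMM-adjusted library size. The counts cover whole genes and the deleted exons are not named in the labels, so these levels do not check the deletion. Epcam was at 261 ± 10.8 CPM in the knockout and 251 ± 25.3 CPM in Control, and all 10 epithelial markers were detected (summed level 7115 to 7878 CPM in the knockout and 6955 to 8057 CPM in Control; 1 rose and 4 fell).

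Most Hox genes were silent or close to it in both groups. Of the 39, 9 had no count in any library: Hoxa10, Hoxa11, Hoxa13, Hoxb13, Hoxc9, Hoxc12, Hoxc13, Hoxd4 and Hoxd12. A total of 0 over all 11 libraries allows up to 0.0379 CPM (3 counts, counting error only). In GENCODE M21, Hoxd4 lies within the span of Hoxd3, on the same strand. Hoxc6, Hoxc8 and Hoxc9 likewise lie within that of Hoxc5, which also overlaps Hoxc10. Hoxa4, Hoxa5 and Hoxa6 lie within the span of Hoxa3. Another annotated gene, Gm28308, overlaps Hoxa2 to Hoxa6 on the same strand. No HoxB gene has such an overlap. How reads that fit both genes were counted is not given. Such reads may have been left out, which would lower genes of the other clusters and not HoxB. This was not tested. A further 13 had 1 to 9 counts in all, 10 had at least 10 counts but did not pass the filter on low counts, and 7 were tested, 3 of HoxA (Hoxa2, Hoxa3, Hoxa5) and 4 of HoxB (Hoxb2, Hoxb3, Hoxb4, Hoxb5). Counts thus came mostly from HoxA up to paralogue 7 and from HoxB up to paralogue 9. Nearly none came from HoxC, HoxD or any gene numbered 10 to 13.

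**Figure D1:**
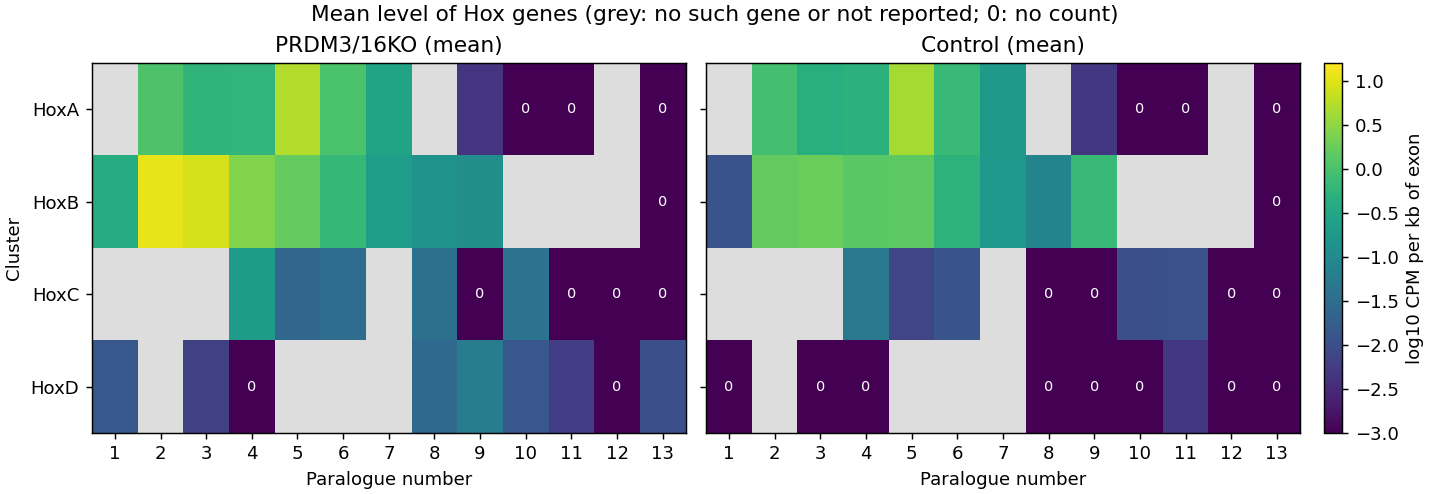
Mean level of each Hox gene reported, as log10 CPM per kb of exon, by cluster (rows) and paralogue number (columns), in the 5 PRDM3/16KO libraries (left) and the 6 Control libraries (right). Squares marked 0 had no count in that group and are drawn at the bottom of the scale; the brightest square is Hoxb2 in the knockout (11.2 CPM per kb) and Hoxa5 in Control (4.28 CPM per kb).

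Per kb of exon, the scale on which genes can be compared, the order of the genes differed between the groups. Hoxb2 was the highest Hox gene in each of 5 knockout libraries, at 11.2 ± 1.05 CPM per kb, followed by Hoxb3 at 8.55 ± 1.53 and Hoxa5 at 5.11 ± 1.84 (SD, n = 5). The ranges of Hoxb2 (10.04 to 12.7 CPM per kb) and Hoxb3 (7.13 to 10.8) overlapped in the knockout, as did those of Hoxb3 and Hoxa5 (3.56 to 8.24). In Control libraries Hoxa5 was the highest in each of 6, at 4.28 ± 1.46 CPM per kb, and the next 4, Hoxb3 (1.76 ± 0.757), Hoxb2 (1.53 ± 0.291), Hoxb5 (1.37 ± 0.626) and Hoxb4 (1.33 ± 0.520), did not differ beyond their spread (SD, n = 6). The summed level of HoxB was 78.6 to 106.8 CPM in the knockout and 16.6 to 35.5 CPM in Control, with no overlap. The summed level of HoxA was 12.6 to 27.7 CPM in the knockout and 10.04 to 21.6 CPM in Control, with overlap. HoxB genes held 76.9 to 86.1% of all Hox counts in knockout libraries and 55.3 to 64.3% in Control libraries. Between clusters, these levels and shares carry the limit on overlapping genes given above.

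Among the 7 Hox genes tested, 3 rose in the knockout (Hoxb2, Hoxb3 and Hoxb4), 0 fell and 4 did not pass (edgeR quasi-likelihood test, Benjamini-Hochberg adjusted p under 0.05 over 13916 genes). Of all genes tested 42.9% were called, 21.1% higher and 21.8% lower. Hoxb2 and Hoxb3 were more than 2-fold higher, and 6.92% of all genes tested were both called and at least 2-fold higher. At an unadjusted p under 0.05 the same test also gave 3 higher and 0 lower, and DESeq2 gave 3 higher and 0 lower. Over all genes tested the median was 0.0023 on the log2 scale. With library-size scaling alone it was 0.106, and the same 3 Hox genes were called. In bulk samples such as these, more cells of a type and more RNA per cell cannot be told apart.

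Hoxb2, which in the hindbrain acts downstream of Hoxb1, had the largest change of the tested members. Hoxb2 (chromosome 11, 96350525 to 96354012, plus strand) was counted at 36.3, 35.0, 40.3, 39.9 and 44.3 CPM in knockout libraries 1 to 5, against 4.43, 5.11, 4.63, 5.19, 5.36 and 7.27 CPM in Control libraries 1 to 6. Every knockout library stood above every Control library, and the highest Control value was that of library 6. Its mean was 39.2 ± 3.68 CPM in the knockout (SD, n = 5) and 5.33 ± 1.01 CPM in Control (SD, n = 6). The log2 fold change was 2.86 with an SE of 0.117 (adjusted p = 9.90e-11 by edgeR).

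Hoxb3, a gene of hindbrain and pharyngeal patterning, rose as well. Hoxb3 (chromosome 11, 96323326 to 96347930, plus strand) was counted at 30.3, 36.3, 38.9, 30.3 and 45.8 CPM in knockout libraries, against 6.38, 6.08, 5.43, 4.33, 9.90 and 12.8 CPM in Control libraries. The groups did not overlap, and Control libraries 5 and 6 were the highest of theirs. These 2 were also the highest in proliferation markers, with summed levels of 618 and 876 CPM, against 173 to 380 CPM in the other Control libraries and 300.03 to 440 CPM in the knockout, and the part of this in Hoxb3 was not tested. Its mean was 36.3 ± 6.50 CPM in the knockout and 7.49 ± 3.22 CPM in Control (SD, n = 5 and 6). The log2 fold change was 2.24 with an SE of 0.222 (adjusted p = 2.13e-06 by edgeR). Without Control libraries 5 and 6 together it was 2.70. The CPM of the groups did not overlap for 28.5% of all genes tested.

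Hoxb4, known from blood stem cell expansion, rose less. Hoxb4 (chromosome 11, 96318267 to 96321638, plus strand) was counted at 5.96, 5.51, 9.59, 4.50 and 7.27 CPM in knockout libraries, against 3.19, 1.66, 3.99, 2.25, 4.12 and 5.30 CPM in Control libraries. The groups overlapped through knockout library 4 and Control library 6. On the log2 scale it was 0.92 higher with an SE of 0.266 (adjusted p = 0.0111 by edgeR). The call was lost with mesenchymal marker level as a covariate, where the log2 difference was 0.29 (edgeR, adjusted p = 0.544). That level, as mean log2 CPM, overlapped between the groups only through Control library 6. Among libraries of low Y-linked transcripts, 4 knockout and 2 Control, the call was also lost (edgeR, adjusted p = 0.113). There the log2 difference was 0.99, no smaller than over all libraries, with a larger SE of 0.413. Among those of high Y-linked transcripts, 1 knockout and 4 Control, it was 0.38.

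Hoxb5, which is expressed in lung mesenchyme in the mouse, did not pass. It was counted at 3.57, 3.02, 5.24, 4.37 and 5.67 CPM in knockout libraries, against 3.72, 2.21, 3.83, 2.77, 3.162 and 7.15 CPM in Control libraries. The groups overlapped widely, and the highest value of all was Control library 6. The difference on the log2 scale was 0.18 with an SE of 0.275 (adjusted p = 0.6246 by edgeR). When single libraries were left out it ran from 0.059 to 0.49, the highest without Control library 6.

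**Figure D2:**
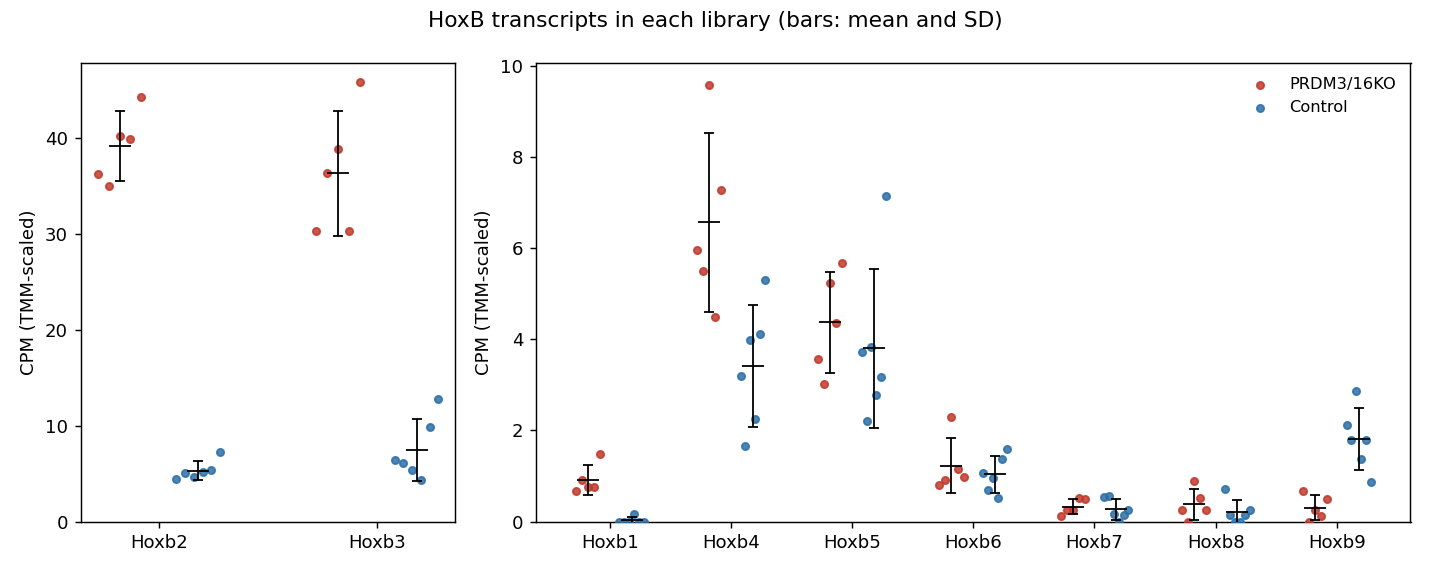
CPM of the HoxB genes 1 to 9 in each PRDM3/16KO library (red, left of each pair) and Control library (blue, right of each pair), with mean and SD as black bars; Hoxb2 and Hoxb3 have a panel of their own with a wider axis. The 5 knockout libraries stand above the 6 Control libraries for Hoxb1, Hoxb2 and Hoxb3 and below them for Hoxb9, and the groups overlap for Hoxb4 to Hoxb8.

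The ends of the HoxB cluster held 2 further genes whose groups did not overlap, both under the filter on low counts. Among genes past the filter 28.5% had groups that did not overlap. The share among genes under it was not taken. Hoxb1 (chromosome 11, 96365752 to 96368256), the 3' gene of the cluster and the gene of hindbrain segment 4 in the mouse, had 5, 7, 6, 6 and 12 counts in knockout libraries 1 to 5. In Control libraries it had 1 count, in library 4, and 0 in the other 5. The ratio of summed counts, 36 in the knockout and 1 in Control, was 37.3 after scaling (95% counting interval 6.28 to 1514). Tested without a filter on low counts, Hoxb1 was 4.48 higher on the log2 scale (edgeR, adjusted p = 2.41e-05 over 19503 genes), a value that depends on how a count near 0 is moderated. Its adjusted p stayed at or below 1.26e-04 in that test when any 1 library was left out. In that test 33.1% of all genes were called, 3421 higher and 3027 lower.

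Hoxb9, at the 5' end of the main HoxB run, went the other way. Hoxb9 (chromosome 11, 96271457 to 96276595) had 5, 0, 2, 1 and 4 counts in knockout libraries, against 12, 13, 18, 8, 13 and 7 counts in Control libraries. Every Control library had more counts than every knockout library. The sums were 12 in the knockout and 71 in Control, a ratio of 0.175 (95% counting interval 0.0864 to 0.325). Without a filter its log2 difference was -2.45 with an SE of 0.486 (adjusted p = 3.68e-04 by edgeR), and with a filter of at least 1 CPM in 5 libraries it was -2.46 (edgeR, adjusted p = 6.94e-04). Without a filter the adjusted p ran from 6.2e-05 to 0.00165 when single libraries were left out, and the call held in 11 of 11 such fits.

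From Hoxb1 to Hoxb5 the ratios were smaller the farther a gene lies from Hoxb1. The wide interval of Hoxb1 (6.28 to 1514) includes the ratio of Hoxb2, so the order of these 2 is not settled. The intervals cover counting error and not the spread between libraries, and differences between neighbouring genes were not tested. Without Control libraries 5 and 6 the log2 fold changes of Hoxb2 and Hoxb3 were 3.01 and 2.70. With the mesothelial covariate they were 3.41 and 3.47, in the other order. Measured between the 3' ends of the genes, Hoxb2 lies 14.2 kb, Hoxb3 20.3 kb, Hoxb4 46.6 kb and Hoxb5 62.1 kb from Hoxb1. The knockout over Control ratios of summed counts were 7.22 for Hoxb2 (95% counting interval 6.27 to 8.36), 4.66 for Hoxb3 (4.13 to 5.29), 1.88 for Hoxb4 (1.53 to 2.33) and 1.12 for Hoxb5 (0.898 to 1.40). For Hoxb6 (66.7 kb) the ratio was 1.16, for Hoxb7 (78.1 kb) 1.22 and for Hoxb8 (82.9 kb) 1.94, each with an interval that included 1. None of these 3 passed in the test without a filter (edgeR, adjusted p from 0.382 to 0.749). Hoxb9 lies 91.7 kb from Hoxb1, and Hoxb13, the last gene, 170.8 kb away with no count.

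**Figure D3:**
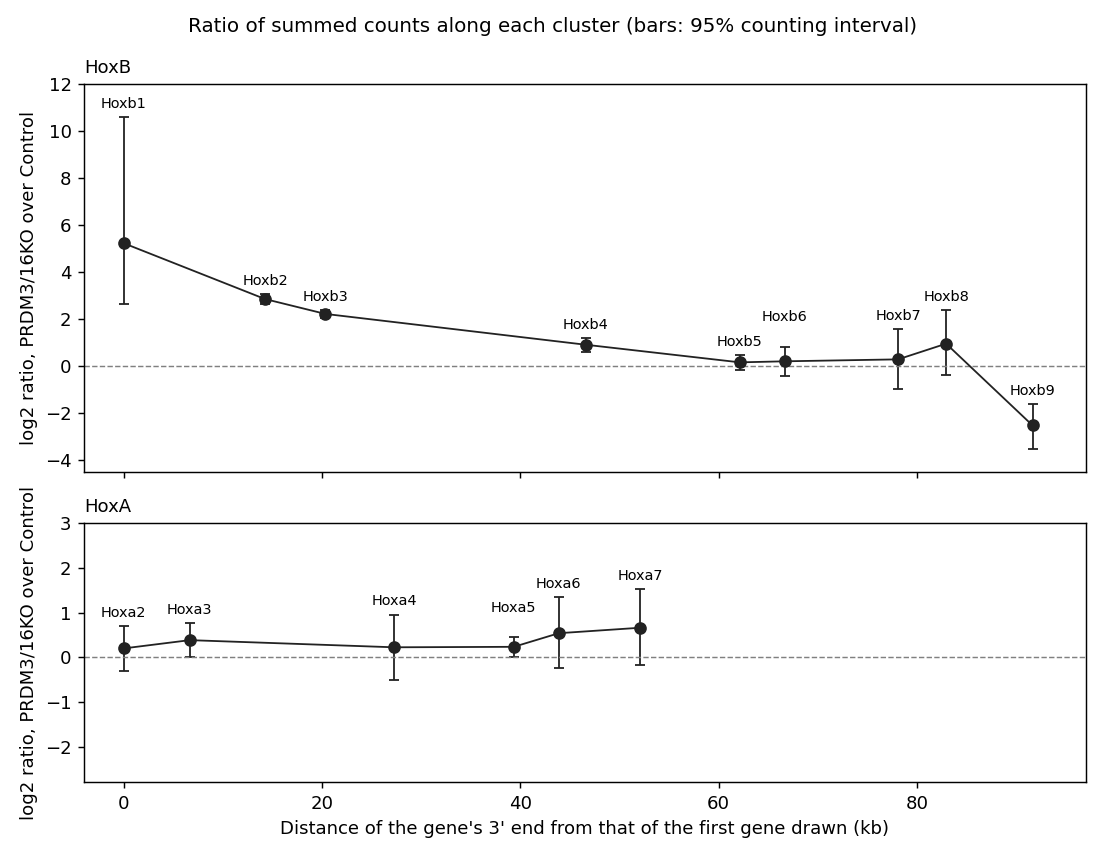
Ratio of summed counts scaled to library size, PRDM3/16KO over Control on the log2 scale, against the distance (kb) of each gene's 3' end from that of Hoxb1 (upper panel) or Hoxa2 (lower panel), with 95% counting intervals; genes with fewer than 10 counts are left out. In HoxB the points descend from 5.22 at Hoxb1 to 0.17 at Hoxb5 and end at -2.51 at Hoxb9, while the HoxA points drawn lie between 0.20 and 0.66.

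Noncoding rows in and around the clusters were read beside the genes. Gm53, a long noncoding transcript between Hoxb13 and Hoxb9 (chromosome 11, 96251105 to 96264868), had 17 counts in the knockout and 85 in Control, and the groups did not overlap (log2 fold change without a filter -2.22; edgeR, adjusted p = 1.92e-04). The row Mir196a-1, between Gm53 and Hoxb9, had 9 counts in the knockout and 25 in Control and did not pass in the same test (-1.36; edgeR, adjusted p = 0.0549). Its mature product, miR-196a, which is known in the mouse to cleave Hoxb8 messenger RNA, has no poly(A) tail and was not measured here. It is shown with the seed, bases 2 to 8, in capitals.
mmu-miR-196a-5p: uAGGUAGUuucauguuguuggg
The rows Mir10a, Mir10b, Mir196b, Mir196a-2, Mir615, Hotair, Hottip, Haglr, Hoxa11os and Hoxd3os1 had no count. On the HoxA side, Halr1, a long noncoding transcript on the 3' side of the HoxA cluster (chromosome 6, 52102949 to 52113684), had 29 counts in the knockout and 0 in Control, at least 10.02-fold higher against a floor of 3 counts over the Control group (edgeR without a filter, adjusted p = 9.1e-05). Hotairm1, Hoxaas2, Hoxaas3 and Hoxb5os, with 25, 22, 9 and 3 counts in the knockout and 15, 12, 3 and 3 in Control, did not pass in that test. Protein-coding neighbours of HoxB did not pass. Ttll6, on the side of Hoxb13, differed by -0.064 on the log2 scale (edgeR, adjusted p = 0.683) and Calcoco2 by 0.19 (edgeR, adjusted p = 0.362). Skap1, on the side of Hoxb1, had 15 counts in the knockout and 8 in Control (edgeR without a filter, adjusted p = 0.272). Over the list of genes beside the 4 clusters, 2 of 11 tested rose (Cbx5, 0.32, and Smug1, 0.25), 2 fell (Hibadh, -0.47, and Snx10, -0.31) and the median was 0.048. The shares over all genes tested were 21.1% higher and 21.8% lower.

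The strand setting of the counting is not given in the sources used here. The antisense transcript Hoxb3os shares 953 of 3488 exon bases with Hoxb2 and 2250 of 4251 with Hoxb3, and reads from it cannot be told apart from theirs if strand was ignored. Hoxb1, Hoxb4 and Hoxb9 overlap no antisense gene in the annotation.

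HoxA genes were measured next, as paralogues of the genes that changed. Hoxa5 (chromosome 6, 52201754 to 52204587, minus strand) was counted at 7.94, 8.13, 15.5, 6.68 and 9.73 CPM in knockout libraries, against 9.22, 6.63, 8.62, 4.50, 6.74 and 12.5 CPM in Control libraries. The groups overlapped, with knockout library 3 and Control library 6 the highest of each. The difference on the log2 scale was 0.25 with an SE of 0.253 (adjusted p = 0.464 by edgeR). It was 0.0087 without knockout library 3 and 0.43 without Control library 6, and did not pass in either. Mesenchymal markers were highest in the same libraries: their summed level was 1041 CPM in knockout library 3, against 628 to 815 CPM in the other knockout libraries, and 739 CPM in Control library 6, against 428 to 574 CPM in the other Control libraries. With these 2 libraries left out, Hoxb2, Hoxb3 and Hoxb4 stayed called and Hoxa5 did not pass.

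Hoxa3, of the pharyngeal arch organs, was at 2.25, 2.36, 5.50, 2.70 and 4.06 CPM in knockout libraries, against 3.55, 1.105, 2.39, 2.77, 2.89 and 3.08 CPM in Control libraries (log2 fold change 0.37; edgeR, adjusted p = 0.334). Hoxa2, of the second pharyngeal arch, was at 1.59, 1.57, 2.94, 1.03 and 2.22 CPM in knockout libraries, against 1.77, 1.38, 1.12, 0.692, 1.79 and 2.71 CPM in Control libraries (log2 fold change 0.21; edgeR, adjusted p = 0.640). Both pairs of ranges overlapped, and without knockout library 3 the log2 fold changes were 0.13 for Hoxa3 and -0.0081 for Hoxa2. The untested Hoxa4, Hoxa6 and Hoxa7 had 36, 35 and 32 counts in the knockout and 32, 25 and 21 in Control, and none of these passed without a filter (edgeR, adjusted p from 0.290 to 0.762). Hoxa9 had 1 count in each group.

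The HoxB genes were then set against their HoxA paralogues inside each library, a ratio that does not depend on library scaling. The ratios reuse the counts given above and were chosen after those values were seen. The p-values below are thus no separate support for the calls. The log2 ratio of Hoxb2 to Hoxa2 counts was 4.42 ± 0.518 in the knockout and 1.80 ± 0.538 in Control (SD, n = 5 and 6), a difference of 2.62 (exact permutation test over libraries, two-sided, p = 0.00216, the smallest that 462 regroupings can give; 0.00866 adjusted over the 4 pairs). For Hoxb3 over Hoxa3 it was 3.47 ± 0.415 in the knockout and 1.47 ± 0.701 in Control, a difference of 2.01 (exact permutation test, p = 0.00433; 0.00866 adjusted). In both pairs all 5 knockout libraries were above all 6 Control libraries. For Hoxb4 over Hoxa4 the values were 2.85 ± 0.611 in the knockout and 2.37 ± 1.27 in Control, a difference of 0.48 (exact permutation test, p = 0.448). Hoxa4 had 0 counts in Control library 2, where the 0.5 added to each count set the log2 ratio at 4.64, the highest in Control. The test was not run without that library. For Hoxb5 over Hoxa5 the values were -1.096 ± 0.403 in the knockout and -1.09 ± 0.320 in Control, a difference of -0.0039 (exact permutation test, p = 0.989). The groups overlapped for the Hoxb4 pair and for the Hoxb5 pair.

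**Figure D4:**
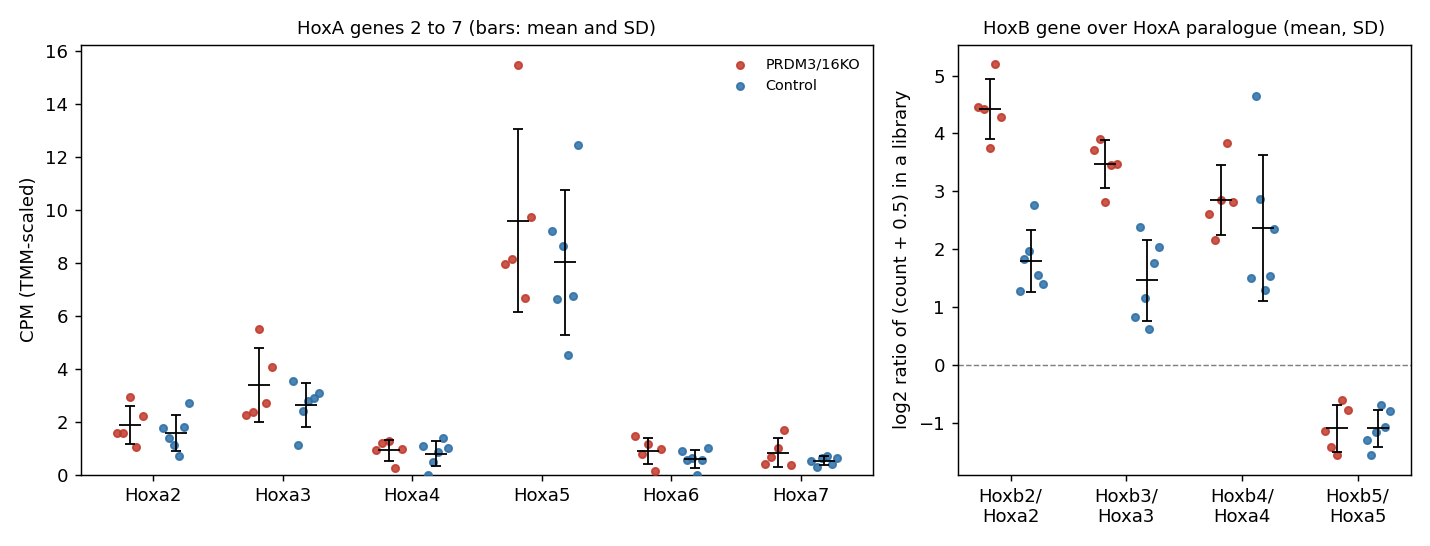
Left, CPM of Hoxa2 to Hoxa7 in each PRDM3/16KO library (red, left of each pair) and Control library (blue, right), with mean and SD; the groups overlap for every gene. Right, log2 ratio of HoxB to HoxA paralogue counts (0.5 added to each) in each library, where the groups are apart for Hoxb2 over Hoxa2 and Hoxb3 over Hoxa3 and overlap for the pairs of paralogues 4 and 5.

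HoxC and HoxD stayed near the limit of detection. HoxC had 33 counts in the knockout and 9 in Control over all 9 genes, of which Hoxc4 held 20 in the knockout and 5 in Control. Of the 20 Hoxc4 counts in the knockout, 10 came from library 3. Without a filter Hoxc4 was 1.92 higher on the log2 scale (edgeR, adjusted p = 0.0342), and the call was lost without knockout library 3 (1.27; edgeR, adjusted p = 0.174) and without Control library 2, 3 or 5 (edgeR, adjusted p = 0.0564, 0.0694 and 0.0733). HoxD had 13 counts in the knockout and 1 in Control, with Hoxd9 and Hoxd8 at 5 and 3 in the knockout and both at 0 in Control. Over all clusters, paralogue groups 10, 11, 12 and 13 had 4, 1, 0 and 1 counts in the knockout and 1, 2, 0 and 0 in Control.

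Of 39 Hox genes, 22 had a promoter sequence in the RefSeq table used here (GRCm38.p6, the same build as mm10), in 24 entries. The 250 bases before the RefSeq start of Hoxb1, chr11:96365508-96365757 (plus strand), are shown because Hoxb1 had 1 count in all of Control and counts in every knockout library. Capitals mark the match to the PBX-HOX motif TGATNNAT, searched on both strands.
Hoxb1: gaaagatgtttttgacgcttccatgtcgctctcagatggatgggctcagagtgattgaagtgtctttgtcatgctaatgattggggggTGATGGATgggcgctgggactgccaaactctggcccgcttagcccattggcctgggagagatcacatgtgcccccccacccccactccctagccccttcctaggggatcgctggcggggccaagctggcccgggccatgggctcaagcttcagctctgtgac
The match stands 162 to 155 bases before the start. In the mouse hindbrain, a control element just upstream of Hoxb1 with such PBX-HOX sites is known to maintain the gene by its own protein. The motif was found in 4 of 24 Hox entries (Hoxa2, Hoxb1, Hoxb8 and Hoxd11) and in 7.68% of 32851 promoters of the same length. The core NKX2-1 motif CAAGTG was found in 1 of 24 (Hoxd12) and 11.6% of all, and AAGATAA, part of the site of the first zinc-finger domain of the Mecom product EVI1, in 0 of 24 and 3.10% of all. The 24 entries do not include Hoxb2 or Hoxb3, whose promoters were not searched. These motifs were searched on both strands too, and no match was found in the 250 bases before Hoxb4.

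TALE homeodomain genes were measured next. They were the PBX, MEIS and PKNOX partners of HOX proteins on DNA and, outside those families, Tgif1 and Tgif2. Of 11 tested, 6 rose, 1 fell and 4 did not pass, with a median log2 fold change of 0.42. Over all genes tested 21.1% were higher and 21.8% lower. Meis2 rose to 40.4 ± 4.58 CPM in the knockout, against 7.57 ± 2.69 CPM in Control (2.41; edgeR, adjusted p = 8.54e-08), and Meis3 to 9.77 ± 1.40 CPM in the knockout, against 1.72 ± 0.627 CPM in Control (2.51; edgeR, adjusted p = 1.89e-07). Pbx2 (0.65) and Pknox2 (1.62) rose, without overlap of the groups. Pbx3 fell (-0.70), and Meis1 (0.40), Pknox1 (-0.032), Tgif1 (-0.16) and Tgif2 (0.15) did not pass.

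Genes of the retinoic acid pathway, which induces 3' Hox genes, moved in both directions. Of 13 tested, 6 rose and 3 fell, with a median log2 fold change of 0.31, beside 21.1% higher and 21.8% lower over all genes tested. The retinoic acid synthesis enzymes Aldh1a3 and Aldh1a2 rose, Aldh1a3 to 17.9 ± 0.451 CPM in the knockout, against 0.447 ± 0.265 CPM in Control (5.20; edgeR, adjusted p = 6.48e-11), and Aldh1a2 to 12.6 ± 1.30 CPM in the knockout, against 2.92 ± 1.22 CPM in Control (2.12; edgeR, adjusted p = 1.18e-06). Aldh1a2 is also 1 of the mesothelial markers, of which 7 of 8 rose, and the part of those cells in its level was not tested. Rdh10 (-1.04), the enzyme of the step before, and Dhrs3 (-0.998), which reverses that step, fell. The receptor gene Rarb, itself a known target of retinoic acid, rose (0.66; edgeR, adjusted p = 4.38e-04), as did Crabp2 (1.68). The 4 that did not pass were Aldh1a1 (-0.25), Cyp26b1 (0.48), Rara (-0.034) and Rarg (-0.17). Under the filter, Stra6 had 12 counts in the knockout and 29 in Control, and Cyp26a1 had 1 and 6. Crabp1 had 7 and 2, Rxrg 5 and 0, and Cyp26c1 2 and 0. Retinoic acid itself was not measured.

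Among upstream axial regulators, Egr2, which activates Hoxb2 in the mouse hindbrain, rose to 200.5 ± 16.7 CPM in the knockout, against 117 ± 11.2 CPM in Control (0.78; edgeR, adjusted p = 9.20e-07). It was 1 of 5 tested in its list and the only call, with a list median of 0.22. The part of Egr2 in the Hoxb2 level was not tested. Nr6a1 (0.22), Ctcf (0.052) and Gdf11 (-0.14) did not pass. Cdx1, a caudal homeobox gene under the filter, had 44 counts in the knockout and 1 in Control, a ratio of 45.6 (95% counting interval 7.77 to 1841). Cdx4, Gsx1, Gsx2, Pdx1, Evx1 and Evx2 had no count.

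Chromatin regulators of the clusters were called in both directions, where 21.1% of all genes tested were higher and 21.8% lower. Of 31 Polycomb genes tested, 5 rose, 5 fell and the median was 0.014, with Rbbp7 (0.38) and Rnf2 (0.31) higher and Pcgf2 (-0.31) lower. Of 16 trithorax and H3K27 demethylase genes, 3 rose, 1 fell and the median was -0.034, with Kdm6a (0.50), Wdr5 (0.22) and Psip1 (0.24) higher and Dot1l (-0.26) lower. Kdm6a is X-linked and escapes X inactivation, Y-linked transcripts were unevenly spread over the groups as given last, and their part in its call was not tested. Among other homeobox genes of the lung, 5 of 21 rose and 7 fell with a median of 0.11, with Zfhx4 (2.404) and Satb1 (1.52) higher and Irx1 (-1.47) and Irx2 (-1.06) lower. Nkx2-1, the regulator of lung epithelial identity, was lower (-0.28; edgeR, adjusted p = 0.009998).

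Cells other than epithelium can carry Hox transcripts, and their markers were also higher in part. The shares over all genes tested were 21.1% higher and 21.8% lower. Of 19 mesenchymal markers tested, 8 rose and 0 fell (median 0.46; summed level 628 to 1041 CPM in the knockout and 428 to 739 CPM in Control). Of 8 mesothelial markers, 7 rose and 0 fell (median 1.03; 1653 to 1938 CPM in the knockout and 1136 to 1615 CPM in Control, most of it Krt19, which epithelium also expresses). Of 9 endothelial markers, 5 rose and 1 fell (median 0.69; 119 to 154 CPM in the knockout and 94.4 to 163 CPM in Control). Of 6 blood and immune markers, 3 rose, the macrophage receptor gene Csf1r (1.32), Ptprc (1.30) and Itgam (2.29), with a median of 1.25. Their summed level, 439 to 763 CPM in the knockout and 243 to 1210 CPM in Control, was mostly Lyz1, which did not pass (491 CPM in the knockout and 691 CPM in Control). Of 4 neural and glial markers 3 rose (median 0.68; 28.4 to 33.2 CPM in the knockout and 11.8 to 23.3 CPM in Control). Hbb-bt and Hba-a1 had no count. No mesenchymal, mesothelial, endothelial or neural marker was at 0 in all libraries. Of 10 proliferation markers none was called. With the mesenchymal marker level as a covariate Hoxb2 was 2.71 higher on the log2 scale (edgeR, adjusted p = 1.49e-08) and Hoxb3 1.96 higher (edgeR, adjusted p = 1.55e-04). That level, as mean log2 CPM, was 3.32 to 4.14 in the knockout and 3.02 to 3.62 in Control. The groups overlapped only through Control library 6, so the fit separates this level from genotype only weakly. The mesothelial level, as mean log2 CPM, was 4.39 to 4.93 in the knockout and 2.91 to 3.69 in Control; without overlap, it and genotype cannot be told apart by such a fit. For the genes under the filter, the part of these markers in the result was not tested.

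Y-linked transcripts were high in knockout library 4 and in Control libraries 1, 3, 4 and 5, and low in the other 6. Among the low libraries alone, 4 knockout and 2 Control, the log2 fold change of Hoxb2 was 2.64 and that of Hoxb3 1.98 (edgeR, adjusted p = 1.12e-05 and 0.00123). Among the high libraries, 1 knockout and 4 Control, with the lone knockout library assumed to vary like the others, they were 3.01 and 2.19 (edgeR, adjusted p = 2.77e-05 and 0.00221).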

How the data were processed

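The authors deposited 1 table of raw counts per gene symbol, with 1 column for each of the 11 libraries and no normalization. Per the submitters' processing notes, the build was mm10 and the tools were HTSeq 2.0, DESeq2, Bowtie2 2.4.2, Trim Galore 0.4.2, Picard 2.18.22, FastQC and SAMtools 1.10.0, with no role stated. Not given in the sources used here: the annotation, the strand setting, and what was done with duplicate or multiply matching reads. Bowtie2 does not split reads across introns, so reads over exon junctions may be under-counted. Of 24421 rows, 27 carry dates in place of symbols; they stayed in the totals. All 39 Hox symbols matched GENCODE M21, the source of the coordinates and exon lengths.

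Genes were filtered with edgeR's filterByExpr, library sizes scaled by TMM, and genotype tested over all genes with edgeR 4.0.16 in R 4.3.3 (quasi-likelihood F-test, robust, two-sided, Benjamini-Hochberg, threshold 0.05). Log2 fold changes are knockout over Control. Members with too few counts were read from summed counts, with exact binomial intervals that cover counting error only, and from the same test without a filter. The members and lists were chosen with earlier results of these data known, and the paralogue ratios, neighbouring transcripts and Hoxb1 promoter after values were seen. Some items, 1 Hox gene among them, are not reported here, though sums and counts include them. Of the other Hox rows, those past the threshold, and those tested with a mean of at least 1 CPM, are given in full, and up to 4 called genes for each other list. Other named genes of those lists, such as Rarb and Crabp2, were added after their values were seen. The steps were tested on simulated data. Alternatives used DESeq2 1.42.0, limma 3.58.1 (voom), other scalings, filters, covariates, library sets and a threshold of 0.01.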

Additional observations from a re-analysis of the deposited data

Results flagged for a closer look

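Control library 6 stood apart from the other 5 Control libraries for 2 Hox genes. For Hoxb2 it was at 7.27 CPM, the next Control library being at 5.36 CPM, and that gap made up 0.672 of the Control range. For Hoxb5 it was at 7.15 CPM, the next being at 3.83 CPM, with a gap of 0.672 of the range. Among 14 groups of libraries examined in this way (7 genes in 2 genotypes) 2 were singled out, where chance gives about 5%. Without Control library 6 the log2 fold change of Hoxb2 was 2.98 and that of Hoxb5 0.49, the first called and the second not. The same library had the highest mesenchymal and proliferation marker levels of Control, and the part of these in these values was not tested.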

How the results depend on the processing

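The count of Hox genes that rose was 3 in the reported test, 5 without a filter on low counts (Hoxb1 and Hoxc4 added) and 2 with the mesenchymal or the mesothelial covariate, within either set of Y-linked level, or at a threshold of 0.01, where Hoxb4 was lost. It was 3 in each fit that left out 1 library, with the replicate number as a block, and with each other alternative run. The count that fell was 0, and 1 (Hoxb9) without a filter, with at least 1 CPM in 5 libraries, among high Y-linked libraries, and without Control library 6 and knockout library 3, the last an alternative chosen after seeing the data; leaving out 1 library at a time gave 0 to 1. Under the reported filter Hoxb9 was not tested, and it was called in each of these fits that tested it. Over the 29 alternatives run, the log2 fold change ran from 2.64 to 3.41 for Hoxb2 and from 1.96 to 3.47 for Hoxb3, both called in 29 of 29, with the highest value of each from the mesothelial covariate, which does not overlap between the groups; that of Hoxb4 ran from 0.29 to 1.25. Uncalled genes changed sign with the mesenchymal covariate (Hoxa2 -0.56, Hoxa3 -0.19, Hoxa5 -0.42, Hoxb5 -0.44), among high Y-linked libraries (Hoxa2 -0.40, Hoxa3 -0.11, Hoxa5 -0.13) and among low ones (Hoxb5 -0.12), and when single libraries were left out Hoxa2 ran from -0.0081 to 0.45, Hoxa3 from 0.13 to 0.49 and Hoxa5 from 0.0087 to 0.43, each lowest without knockout library 3; the cause was not tested. Libraries with the same number correlated at -0.0666 to 0.253 in their deviations from the group means, so the numbers are not taken as pairs; with the number as a block over libraries 1 to 5, 3065 genes rose and 3105 fell, beside 3120 and 3269 in the same libraries without it, and Hoxb2, Hoxb3 and Hoxb4 had log2 fold changes of 2.98, 2.51 and 1.12. Depth limits what can be read of the 32 untested Hox genes, which have few counts or none.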
